A study of Xenopus laevis with 6 samples.

Results

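Of the 40211 accessible regions listed at stage 10 on the 18 assembled chromosomes of the frog Xenopus laevis, 502 each overlapped 2 or more of the 55045 regions listed there at stage 12. Each of these early regions thus met several late regions, and for 68 of them a late region also overlapped another early region. The members were chosen by the overlap of the 2 lists, at a minimum of 1 bp, so the division itself is the rule of choice and not a result. The assay was ATAC-seq, in which the transposase Tn5 cuts accessible DNA and reads pile up there. The tissue was ectodermal explants (animal caps), cut from stage 9 embryos and kept in culture until stage 12 (late gastrula) or until stage 10 (early gastrula), with 3 libraries a stage and 2 explants a library. No genotype or treatment other than culture is named, and the tissue label could not be checked against marker genes, since the lists name no genes. The authors deposited 1 list per stage for the 3 libraries together, on the genome build xenLae2. No spread between libraries exists, no test between the stages was possible, and every value below describes these 2 lists.

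The animal cap is the roof of the blastula, and in culture it is a classic source of early ectoderm, which goes on to form epidermis and, under other signals, neural tissue. During gastrulation its cells pass out of a pluripotent state, and regulatory elements of the genome gain and lose accessibility. An accessible region is often a run of neighbouring sites bound by transcription factors, each giving a local maximum of reads, called a summit, with wrapped nucleosomes between them. A list joins neighbouring stretches of enriched reads into 1 region when they lie close enough, so that a region of several summits can be written as 1 interval or as several.

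The split regions were few. They made up 1.61% of the 31237 stage 10 regions that overlapped any stage 12 region (95% Wilson interval 1.47% to 1.75%, counting error only, as for all intervals here). The other 30735 overlapped exactly 1 stage 12 region and are called undivided below. Of the 502 split regions, 490 met 2 stage 12 regions and 12 met 3, which was the most. The opposite case, a stage 12 region that overlapped 2 or more stage 10 regions, was more common. There were 1721 such joined regions, 5.74% (5.49% to 6.01%) of the stage 12 regions with an overlap. The split regions numbered 0.292 for each joined region. With stage 10 regions of 1 summit left out, there were 499 split and 731 joined regions.

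The gaps were narrow. The 514 gaps between neighbouring stage 12 regions had a median width of 107 bp, with the middle 50% between 99 and 124.75 bp and a full range of 94 to 763 bp. The narrowest space between any 2 regions of the stage 12 list was also 94 bp, and in the stage 10 list it was 95 bp. No 2 regions of a list touched or overlapped. Most gaps of split regions therefore lay just above the narrowest space that the stage 12 list contains. Of the 514 gaps, 141 (27.4%) were under 100 bp, 385 (74.9%) under 125 bp and 442 (86.0%) under 150 bp. Gaps of 150 bp or more numbered 72, and 34 of them reached 200 bp. Summed per region, the gaps came to a median of 12.4% of the stage 10 width over the 502 regions (lowest 3.73%, highest 65.4%).

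**Figure D1:**
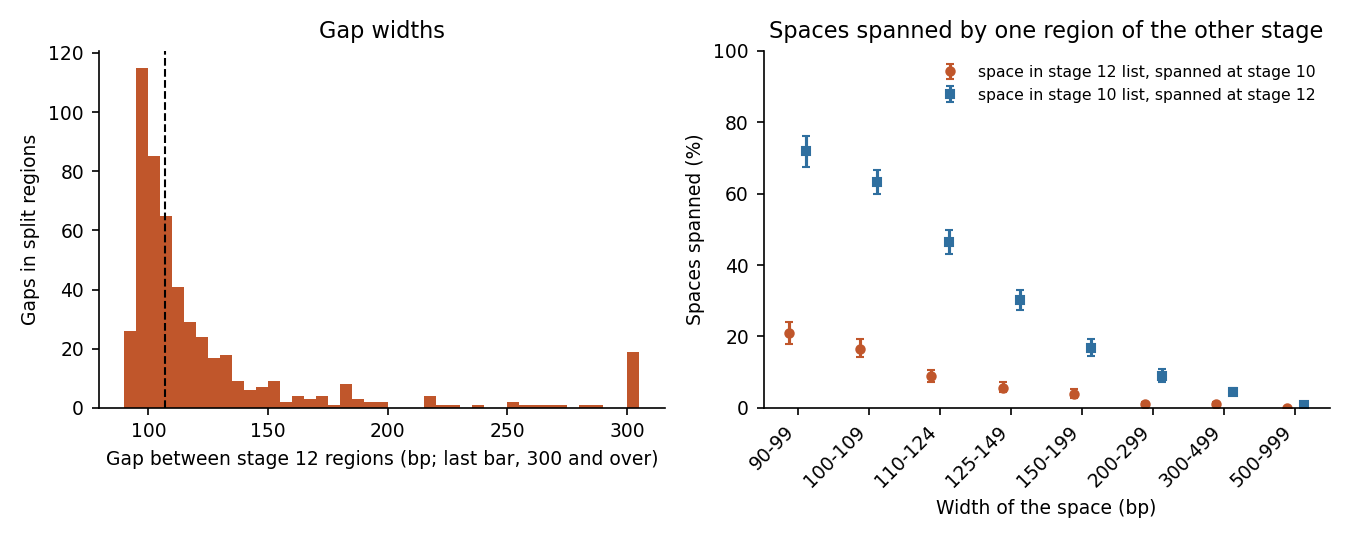
Left, widths of the 514 gaps (bp) in bars of 5 bp, with everything from 300 bp up in the last bar and the median of 107 bp dashed. Right, the percentage of spaces between neighbouring regions of a list that 1 region of the other stage spanned from end to end, by width of the space, with 95% Wilson intervals. Circles (stage 12 spaces) lie below squares (stage 10 spaces) in every class, and both fall with width.

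Narrow spaces were bridged in both directions, but unequally. Among all stage 12 spaces under 100 bp, a single stage 10 region spanned 141 of 677, or 20.8% (17.9% to 24.0%). For stage 10 spaces under 100 bp, a single stage 12 region spanned 311 of 432, or 72.0% (67.6% to 76.0%). Between 125 and 149 bp the shares were 5.60% (4.35% to 7.19%) of 1017 stage 12 spaces and 30.2% (27.4% to 33.1%) of 981 stage 10 spaces. Between 200 and 299 bp they were 0.997% (0.605% to 1.64%) of 1505 stage 12 spaces and 8.87% (7.27% to 10.8%) of 1003 stage 10 spaces. The stage 10 spaces closed at stage 12 had a median width of 112 bp, close to the 107 bp of the gaps that opened. The background of reads under the stage 12 list was 2.13 times that under the stage 10 list (4.701 against 2.204 reads at the floor, the most common local background of a list), and the part of this difference in background in the excess of joined regions was not tested.

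The outer ends of split regions stayed near their places. Of the 1004 outer edges, 689 (68.6%) lay within 50 bp of the stage 10 edge at stage 12, and the median shift was 6 bp outward. Edges of undivided regions did much the same, with 64.7% within 50 bp and a median shift of 10 bp outward. From the outermost start to the outermost end, gaps included, the stage 12 regions of a split covered a median of 1135.5 bp, against 991 bp for the stage 10 region. A minority of edges moved far: 138 lay over 200 bp outward and 24 over 200 bp inward.

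With the gap counted in, the median change in width was close in split and undivided regions of 500 bp or more. From 500 to under 750 bp at stage 10, the stage 12 span was a median of 1.087 times the stage 10 width in 106 split and 1.092 times in 7670 undivided regions. At 750 bp or more it was 1.012 times in 366 split and 1.016 times in 9813 undivided regions. By narrower class this order did not hold. The split median was the higher from 750 to under 1000 bp (1.048 against 1.029) and from 1000 to under 1250 bp (1.013 against 1.009). It was also higher from 1500 to under 2000 bp (1.009 against 0.996). The medians were nearly equal from 1250 to under 1500 bp (1.004 and 1.004) and at 2000 bp and over (0.991 and 0.992). Without the gap, which the rule requires and which lowers the sum by construction, the stage 12 regions of a split summed to a median of 0.926 times the stage 10 width (middle 50%, 0.849 to 1.09), and in 165 of 502 (32.9%) the sum exceeded the stage 10 width. Undivided regions had a median ratio of 1.09 (1.00 to 1.49), and 73.3% were wider at stage 12. Split regions were wider to begin with, at a median of 991 bp against 565 bp for undivided ones at stage 10. Most splits were uneven. The narrower stage 12 region had a median width of 274.5 bp (73 to 1131 bp) and the wider one 680 bp (128 to 2351 bp).

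**Figure D2:**
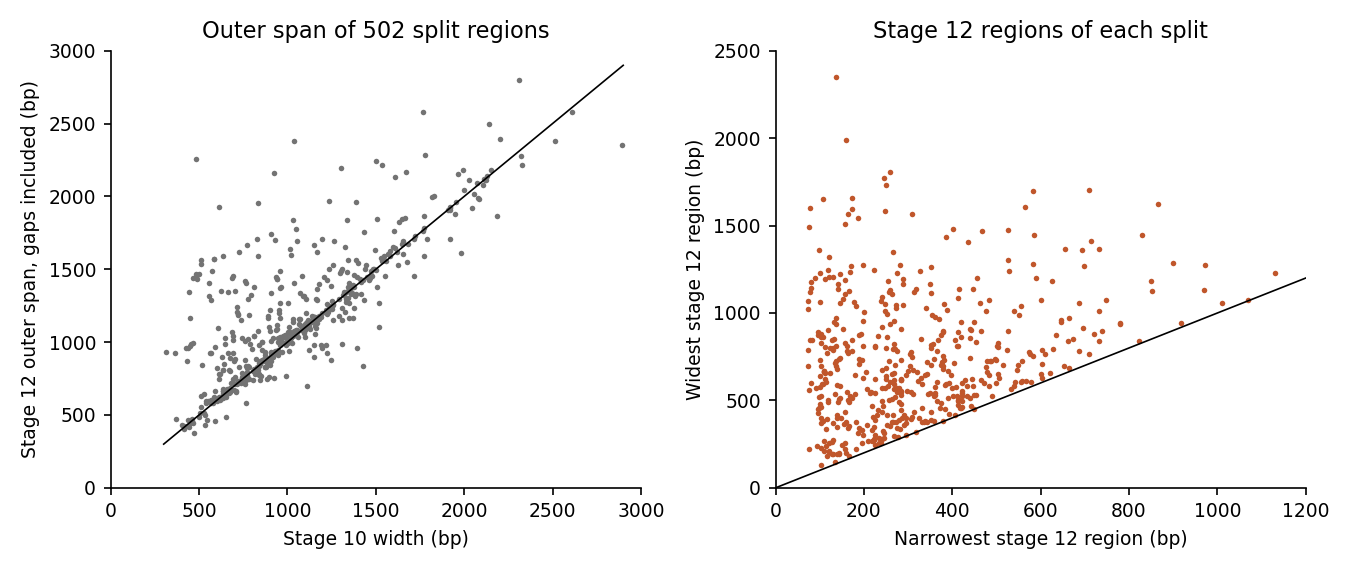
Each point is 1 of the 502 split regions. Left, the span from the first stage 12 start to the last stage 12 end against the stage 10 width, both in bp, where most points follow the line of equality and the rest lie mainly above it. Right, the widest against the narrowest stage 12 region of each split, in bp, with equality as a line.

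Wide regions with many summits were split most often. The split share was higher in each wider class of stage 10 regions: 0.226% (30 of 13282) under 500 bp, 2.11% (119 of 5637) from 750 to under 1000 bp, 10.1% (54 of 537) from 1500 to under 2000 bp and 31.9% (22 of 69, interval 22.1% to 43.6%) at 2000 bp and over. With 1 stage 10 summit the share was 0.0554% (3 of 5420), with 3 summits 1.25% (85 of 6824) and with 9 or more 12.8% (43 of 335). Width is not independent of the rule, since a wide interval has more room for a gap. Split regions held a median of 5 stage 10 summits and undivided regions 3. Within a class of width the 2 kinds had nearly equal numbers: the medians were 4 and 4 from 750 to under 1000 bp, and 6 and 6 from 1250 to under 1500 bp.

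**Figure D3:**
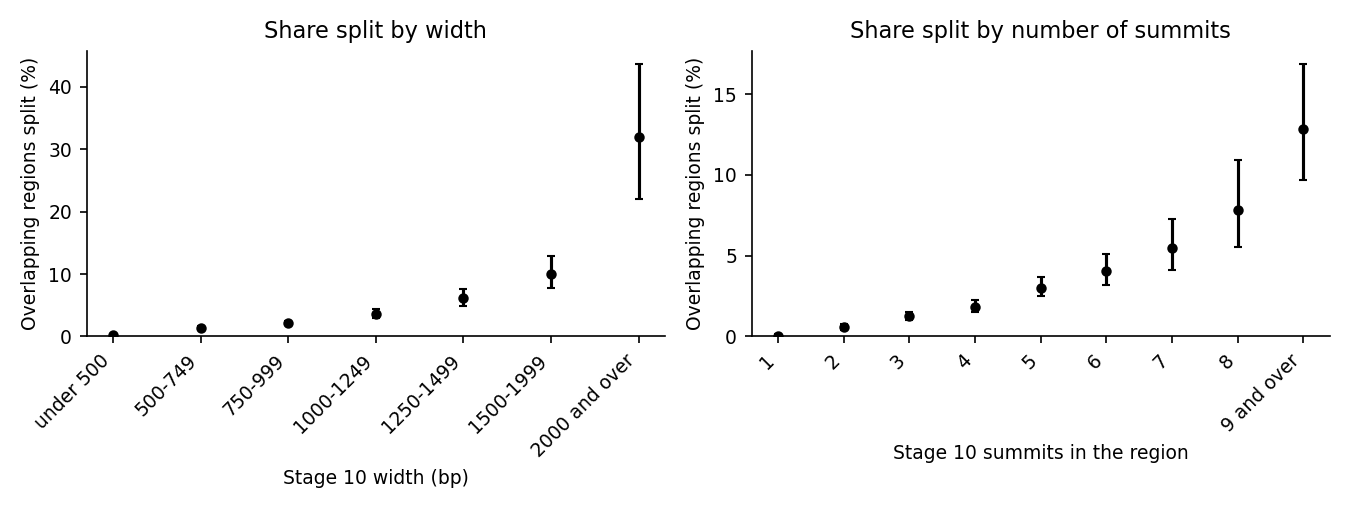
Percentage of stage 10 regions with any overlap that were split, with 95% Wilson intervals, by stage 10 width in bp (left) and by number of stage 10 summits (right). The share is 0.226% under 500 bp and 31.9% at 2000 bp and over, and 0.0554% with 1 summit and 12.8% with 9 or more.

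Few early summits lay in a gap. The 502 split regions held 2588 stage 10 summits, of which 2479 lay inside a stage 12 region, 64 (2.47%) in a gap and 45 beyond the outer stage 12 ends. Gaps covered 12.3% of the stage 10 bases of these regions, several times the share of summits found in them. Of the 502 regions, 56 had a stage 10 summit in a gap (11.2%, interval 8.69% to 14.2%). The best stage 10 summit was taken as that with the highest −log10 p, the authors' measure of how far its reads exceed the local background. It fell in a stage 12 region in 500 cases, in a gap in 1 and outside both in 1. In 470 of 502 (93.6%, interval 91.1% to 95.4%) each stage 12 region held at least 1 of the early summits, so that the early summits were shared out between the late regions.

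The stronger side was mostly the same in both lists. For those 470 regions, stage 10 summits that lay inside a stage 12 region were ranked by −log10 p. The strongest of them lay in the stage 12 region with the highest −log10 p in 383 (81.5%, interval 77.7% to 84.7%). A wider stage 12 region has more room for summits at both stages, and this share was not tested against width. The weaker stage 12 region of a split had a median of 42.4% of the −log10 p of the stronger (middle 50%, 21.3% to 63.3%). The remaining 32 regions included a stage 12 region with no early summit in it. Such late regions overlapped the stage 10 region by a median of 81.5 bp and extended a median of 291.5 bp beyond it. For stage 12 regions with an early summit the medians were 375 bp of overlap and 5 bp beyond.

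**Figure D4:**
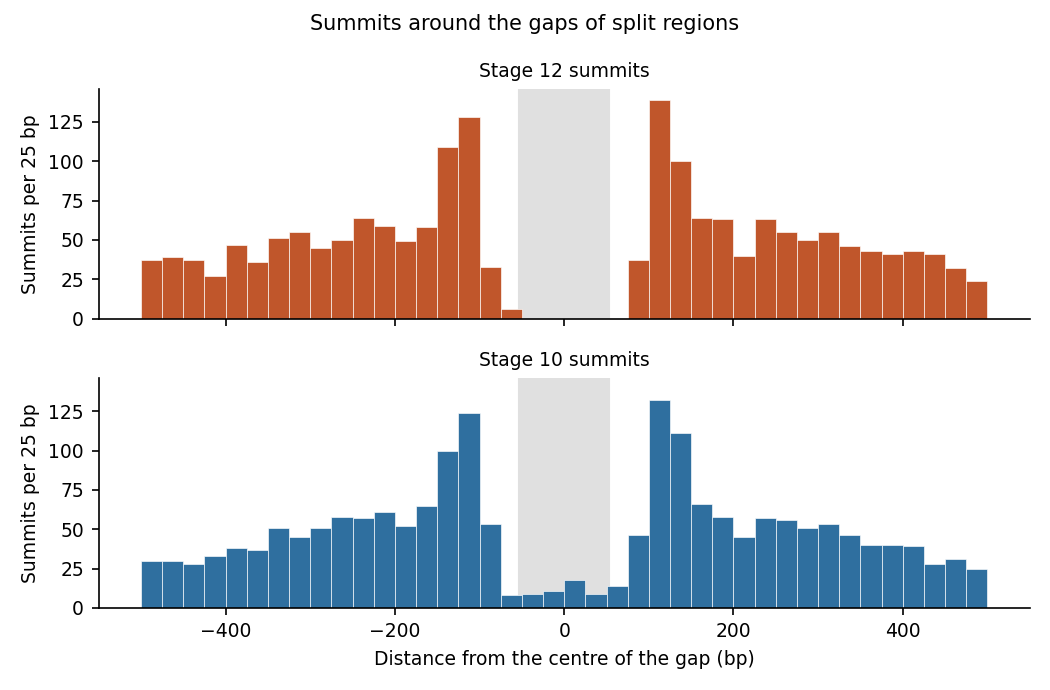
Number of summits per 25 bp by distance from the centre of the gap (bp), summed over the 514 gaps, for stage 12 (above) and stage 10 (below), with the median gap shaded. Both profiles peak between 100 and 125 bp from the centre and both are low inside the gap, where stage 12 has 0 and stage 10 has 47 summits within 50 bp.

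Gaps lay where stage 10 already had few summits. Within 50 bp of the gap centres there were 0 stage 12 summits, which the rule fixes, and 47 stage 10 summits, which it does not. The fullest 25 bp bin, at 100 to 125 bp to the right of the centre, held 139 stage 12 and 132 stage 10 summits. The stage 10 summit nearest to a gap centre was a median of 113 bp away. Across the gap the nearest summits on either side were a median of 312.5 bp apart at stage 12 and, for the 483 gaps with a stage 10 summit on both sides, 292 bp apart at stage 10.

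Gaps were more frequent between early summits that lay farther apart, but most of the widest spacings had no gap. Overlapping stage 10 regions held 67688 pairs of neighbouring summits, and a gap lay between the members of 437 pairs (0.646%). Those 437 pairs were a median of 283 bp apart and the other 67251 a median of 162 bp. A gap of at least 94 bp that holds no summit needs a spacing at least as wide, so the narrowest spacings could not have held one. Stage 12 summits also lay a median of 82.5 bp from the gap edge. Wide spacings are therefore favoured in part by construction. Of pairs 150 to 199 bp apart 0.129% (18 of 13916) had a gap between them, of pairs 250 to 299 bp apart 1.57% (105 of 6681) and of pairs 400 bp or more apart 6.87% (67 of 975). In regions with 3 or more stage 10 summits, 276 of 404 such gaps (68.3%) lay in the widest spacing of their region, where the median region had 4 spacings. The widest spacing has the most room for a gap, and this share was not tested against length alone. The lower summit of a pair with a gap had a median of 50.6% of the best fold enrichment of its region, against 56.8% for pairs without a gap. Pairs without a gap came mostly from undivided regions, which held fewer summits. The difference was not tested against the number of summits in a region. Centres of 370 of the 514 gaps lay in the middle 50% of the stage 10 region. The rule requires a stage 12 region on both sides of a gap, which by construction keeps centres away from the ends.

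The 64 early summits that fell in gaps were mostly well below the best summit of their region. Their fold enrichment, the authors' ratio of reads at the summit to local background, had a median of 3.18 (1.75 to 6.76). This was a median of 42.9% of the best summit of the same region, and 33 of the 64 were the lowest summit of their region. They were not compared as a set with the lesser early summits inside stage 12 regions. Some of those were as low, such as one of fold 2.43 at 109335961 on chromosome 1S. The 64 gap summits sat a median of 56 bp from the nearest gap edge, and 12 were within 25 bp of it. Wide gaps held them more often. A stage 10 summit was present in 3 of 141 gaps under 100 bp (2.13%), in 8 of 57 between 125 and 149 bp (14.0%), in 5 of 15 between 200 and 299 bp (33.3%) and in 15 of 19 at 300 bp or more (78.9%, interval 56.7% to 91.5%). A wider gap takes in more bases, and this order was not tested against width alone.

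Taken over all widths, split regions had more reads at the best summit than undivided ones, over a higher local background. The pileup of reads at the best summit, solved from the authors' fold enrichment and −log10 p, had a median of 305 reads in split and 225 reads in undivided regions at stage 12. At stage 10 it was 104 reads in split and 73 reads in undivided regions. In units of the background floor of each list these are 64.9 and 47.9 times at stage 12, and 47.2 and 33.1 times at stage 10. The local background was a median of 5.44 times the floor for split and 3.56 times for undivided regions at stage 12, and 4.68 and 3.15 times at stage 10. The peak caller is not given, so it is not known whether this background takes in reads of the region itself. A background above the floor thus does not show that reads were dense around the region.

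Within classes of stage 10 width from 500 bp up, the background difference was seen in each class and the difference in reads was not. From 500 to under 750 bp the pileup was lower in split regions, at 44.99 times the floor in 106 split and 48.50 times in 7670 undivided regions at stage 12. At stage 10 it was 32.4 times in split and 32.7 times in undivided regions of that class. In the 5 classes from 750 bp up the pileup was higher in split regions at both stages, for example 59.8 times in split and 57.2 times in undivided regions from 750 to under 1000 bp at stage 12. From 750 to under 1000 bp the local background was 5.05 times the floor in 119 split and 3.41 times in 5518 undivided regions at stage 12, and 4.18 and 2.89 times at stage 10. The fold enrichment there was lower in split regions, with medians of 12.2 in split and 15.7 in undivided regions at stage 12, and 9.36 and 10.9 at stage 10. From 1250 to under 1500 bp the stage 12 fold was 13.0 in 71 split and 14.3 in 1096 undivided regions, and the stage 10 fold 10.1 and 10.5. Background was higher in split regions in each of the 6 classes from 500 bp up, at both stages. Fold was lower in split regions in each class at both stages, except at 2000 bp and over at stage 12, where it was 11.0 in 22 split and 9.86 in 47 undivided regions. Taken over all widths again, 81.1% of split regions had a score of 1000 at stage 10, against 63.1% of undivided ones. That score is the highest the authors' lists hold, and its share is not given here by class of width. The median stage 10 −log10 p was lower in split regions from 500 to under 750 bp, at 42.3 against 47.9 in undivided ones. It was higher in split regions in each wider class, for example 64.9 against 59.2 from 750 to under 1000 bp.

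The split regions with the highest −log10 p at stage 10 show the more common form, a gap that held no early summit. Positions are on xenLae2, counted from 1, and no gene annotation of that build was used. The first was chromosome 3L, 4507097 to 4507715, whose stage 12 regions ran from 4507102 to 4507324 and from 4507426 to 4507707, with a gap of 101 bp. Its stage 12 summits, at 4507243 and 4507562, had folds of 11.3 and 12.4, and the stage 10 summits beside them, at 4507247 and 4507560, folds of 23.9 and 33.7. A further stage 10 summit at 4507151, of fold 5.59, also fell in the left region. The pileups at the main pair of places were 180 and 200 reads at stage 12 and 627 and 890 reads at stage 10. This region was lower in reads at stage 12 although the background floor of that list is the higher one.

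The second, chromosome 3L, 139402706 to 139403338, also had a gap of 101 bp. It left a stage 12 region of 102 bp around a summit of fold 22.5 and one of 460 bp with summits of fold 36.5 and 5.47. Its 2 stage 10 summits, of fold 32.3 and 46.6, lay within 3 bp of the first 2 of these. On chromosome 6S, 305050 to 306197, a gap of 108 bp set apart the best summit. That summit kept a stage 12 region of 153 bp with a fold of 26.6, against 31.2 at stage 10, and the other 4 stage 10 summits, with folds of 6.25 to 8.72, passed into a stage 12 region of 910 bp.

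On chromosome 1L, 87137560 to 87139587, the gap was 94 bp in a stage 10 region of 2028 bp with 10 summits. It cut off the first summit, of fold 3.04 at stage 12 and 3.33 at stage 10, while the best, of fold 23.0 at stage 12 and 19.5 at stage 10, stayed in a stage 12 region of 1772 bp. On chromosome 5S, 86217402 to 86218526, a gap of 189 bp parted 2 pairs of summits. The stronger side differed between the lists there: at stage 12 the left best summit had the higher fold, 31.1 against 24.4 on the right, and at stage 10 the right one, 25.2 against 22.3 on the left. None of these 5 gaps held an early summit.

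The 5 widest gaps were of another form, and each held 1 or 2 early summits. The widest, 763 bp, lay on chromosome 7L in the region 107293089 to 107294254. It held a stage 10 summit at 107293658 of fold 6.35 and 42 reads, beside summits of fold 6.72 and 9.33 on its right, which lay in the right stage 12 region. The stage 12 region on its left, 107292977 to 107293171, overlapped the stage 10 region by 83 bp and held no early summit. The next, 556 bp on chromosome 2L, 122722445 to 122724569, left a region of 1072 bp with 9 stage 12 summits and one of 483 bp with the best summit, of fold 12.8 at stage 12 and 11.4 at stage 10. The 2 stage 10 summits in that gap had folds of 3.01 and 2.61.

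The third was a gap of 497 bp on chromosome 8L, 83541862 to 83544013, with stage 10 summits of fold 3.04 and 2.65 in it. That region was also 1 of the 12 that met 3 stage 12 regions, of 1208, 255 and 120 bp, and the middle one held no early summit. On chromosome 8S, 78404036 to 78405502, a gap of 487 bp held 1 early summit of fold 3.79 between late regions of 441 and 512 bp, whose best folds were 15.8 and 16.1. On chromosome 5L, 63912971 to 63914462, a gap of 462 bp held 2 early summits of fold 3.53 and 5.45. The second of these was above 3 early summits, of fold 4.00, 3.39 and 5.12, that lay inside a stage 12 region.

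Among the regions with 3 late parts, the one with the highest −log10 p was chromosome 1L, 142549053 to 142550403. Its late regions were 546, 303 and 285 bp wide and shared out 3, 2 and 2 of its 7 early summits, and its outer ends moved by 0 and 2 bp. On chromosome 1S, 109335628 to 109337741, late regions of 686, 727 and 479 bp shared out 4, 4 and 2 of 10 early summits. On chromosome 1L, 175076098 to 175077746, gaps of 163 and 100 bp set apart late regions of 456, 524 and 434 bp. On chromosome 6S, 1901590 to 1902603, the left late region extended 504 bp beyond the stage 10 region and overlapped another stage 10 region as well. The local background of that region at its best summit was 62.9 reads at stage 10, far above the floor.

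The only region whose best early summit fell in a gap was chromosome 5L, 143530056 to 143530590. That summit, at 143530271, had a fold of 2.82 and lay 13 bp inside a gap of 112 bp. Its neighbours in the region had folds of 2.67, 2.11 and 2.08, over a local background of 42.3 reads at the best summit. The 2 late regions had best folds of 2.72 and 2.61. At stage 10 only the neighbour of fold 2.67 was near the best summit, with 115 reads against 121. The neighbours of fold 2.11 and 2.08 were lower, with 90 and 89 reads. Their −log10 p was 10.3 and 9.87, against 22.8 for the best.

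**Figure D5:**
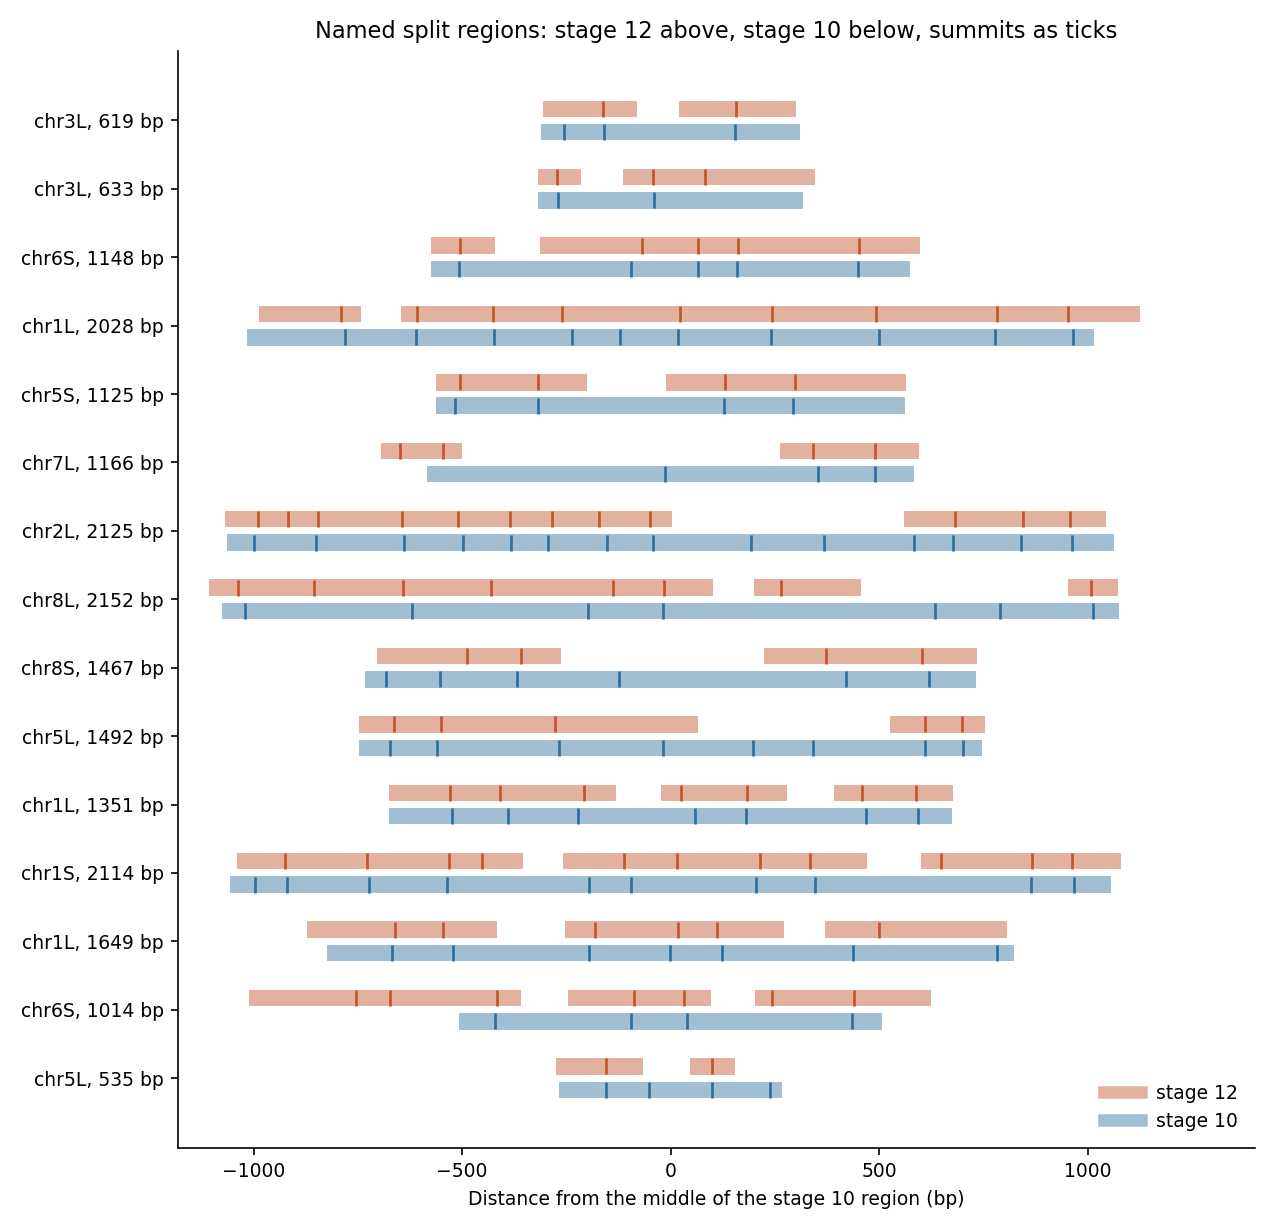
The 15 named split regions, drawn to scale by distance from the middle of the stage 10 region (bp), with stage 12 regions above, stage 10 regions below and summits as ticks. From the top come the 5 with the highest stage 10 −log10 p, the 5 with the widest gaps, the other 4 of the 5 with the most stage 12 regions, and the 1 whose best stage 10 summit lies in a gap.

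Split regions were spread over the genome. Xenopus laevis is allotetraploid and carries longer (L) and shorter (S) homeologous chromosomes. The split share was 1.60% on L chromosomes (292 of 18244, interval 1.43% to 1.79%) and 1.62% on S chromosomes (210 of 12993, interval 1.41% to 1.85%). By chromosome it ran from 1.26% on 2S (23 of 1831, interval 0.838% to 1.88%) to 2.24% on 1S (44 of 1967, interval 1.67% to 2.99%), and L was the higher in 3 of 9 pairs. The intervals of all 18 chromosomes overlap one another, and no chromosome was tested against the rest. Another stage 10 region lay within 1 kb of 38.0% of split and 35.9% of undivided regions.

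The threshold of the rule touched few members. The least overlapped stage 12 region of a split shared a median of 227 bp with the stage 10 region (lowest 4 bp), and in 9 of 502 regions it shared under 50 bp. Just outside the rule, a further stage 12 region lay under 50 bp beyond an edge of an undivided region in 11 cases, the nearest at 5 bp.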

How the data were processed

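The stage in each library title gave its group. The genome build xenLae2 and bcl2fastq 2.20 are named in the submitters' processing notes. The aligner, the peak caller, read filters, a Tn5 shift and pooling are not given in the sources used here. The lists have 10 columns in narrowPeak order without a header, and a row is a summit. The deposited score is 1 value per region, the deposited fold is a ratio of summit reads to background (each increased by 1), and the deposited −log10 p is per summit. Another deposited column, the summit offset, was added to the region start.

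Rows were joined into distinct regions. Overlaps of at least 1 bp were found with numpy 2.4.6 and counted again with bedtools 2.31.1 (502 members). The reads at a summit (pileup) and its local background were found as the pair that gives both the fold and, by a Poisson tail, the −log10 p, within a misfit of 0.01, for 99.96% of stage 12 and 99.99% of stage 10 summits on chromosomes, and 1 best summit of a split's stage 12 regions was not solved. The most common background was taken as the floor of a list. The total reads per library are unknown. Code was tested on simulated intervals. Shares carry 95% Wilson intervals.

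Regions are named by rule: the 5 with the highest stage 10 −log10 p, the 5 with the widest gap, the 5 with the most stage 12 regions (ties by −log10 p), and up to 5 whose best stage 10 summit lies in a gap. Members and measures were chosen with earlier results of these data known. Tests between stages were not possible with 1 list each. The gene table at hand is of another assembly, so genes and sequences are not reported.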

Additional observations from a re-analysis of the deposited data

Results flagged for a closer look

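Regions on unplaced scaffolds were outside the description above and also held split regions. There were 56 of them among 3696 overlapping stage 10 regions, a share of 1.52% (95% Wilson interval 1.17% to 1.96%), against 1.61% on chromosomes. Their median gap was 104.5 bp, and 140 stage 12 regions there joined 2 or more stage 10 regions.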

How the results depend on the processing

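Of 45 alternative values, 30 stayed within their limit (counts, medians and ratios within 1.5 times, shares within the Wilson interval) and 15 moved. The number of split regions was 152 when both lists were kept to their upper 50% by −log10 p. It was 72 with gaps of at least 150 bp and 34 with gaps of at least 200 bp. The last 2 limits were chosen after seeing the data. The split share was 0.916% in the upper 50%, 1.25% after merging regions within 100 bp, 1.17% with gaps of at least 100 bp, 0.230% at 150 bp, 0.109% at 200 bp and 1.93% among regions with 2 or more stage 10 summits. By construction, a limit on gap width removes the narrow gaps. The share of split regions with a stage 10 summit in a gap was 14.6% with gaps of at least 100 bp, 37.5% at 150 bp and 58.8% at 200 bp. It was 8.57% for summits at least 25 bp inside the gap. The share with the best summit in a gap was 0% in the upper 50% of the lists and 0% with that 25 bp inset. Split regions stayed fewer than joined ones under the 5 alternatives run for this ratio, at 0.24 to 0.30 for each joined region. The limit to regions with 2 or more stage 10 summits was not among those 5. It left 499 split and 731 joined regions, against 502 and 1721 in the main run, so the excess of joined regions was much smaller there. The cause of the fall in the upper 50% was not tested. No paired analysis was possible because the libraries of a stage share 1 list. For the same reason no replicate could be left out.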

Other observations

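In 68 of the 502 split regions (13.5%), a stage 12 region also overlapped another stage 10 region, so that splitting and joining met in the same stretch. Joining was common across the lists, where 1721 joined stage 12 regions spanned 1793 stage 10 spaces. The matching share of undivided regions is not given here, so the 13.5% is not shown to be particular to split regions. The start of the next split region lay within 10 kb in 5 cases and within 100 kb in 27, and the closest were 820 bp apart. These counts were not set against the spacing of all listed regions. The 3 split regions with 1 stage 10 summit lay on chromosomes 1S, 6L and 9_10S, and each met a stage 12 region without an early summit. On 1S, the region 46547884 to 46548368 had stage 12 regions summing to 1345 bp against 485 bp at stage 10, with 7 stage 12 summits. On 9_10S, the region 98951392 to 98951902 had 1373 bp at stage 12 against 511 bp at stage 10, with 9 stage 12 summits. On 6L, the region 241499 to 242131 had 711 bp at stage 12 against 633 bp at stage 10, with 3 stage 12 summits. These 3 were singled out after their values were seen.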
